A study of Mus musculus with 12 samples.

Results

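Langerhans cells are the antigen-presenting cells that live among the keratinocytes of the epidermis and the upper hair follicle. Examined here in sorted mouse skin cells were 10 genes of Langerhans cells, of MHC class II and of myeloid receptor signalling. Other immune cells use several of them too. The genes are Cd207, Cd74, H2-Aa, H2-Ab1, H2-Eb1, H2-DMa, Fcer1g, Ciita, Csf1r and Tyrobp. Members were all probe sets on the array that the platform annotation ties to exactly 1 of these genes, which gave 20 of the 45037 probe sets that are not controls. No probe set tied to several genes named any of the 10.

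The samples came from skin of mice labelled with the strain C57 DBA, and the cells were parted by magnetic sorting (MACS) for CD34, a surface glycoprotein of keratinocytes of the hair follicle bulge. The labels describe 3 rounds of isolation, every one starting from at least 6 pooled mice, and each RNA was placed on 2 Affymetrix Mouse 430 2.0 arrays. That gave 6 arrays of CD34+ cells and 6 of CD34- cells. The labels number the arrays 1 to 6 within a fraction without saying which share an RNA, so n = 6 counts arrays that stand for 3 RNA samples, and p-values measure the spread between arrays and are too small where arrays that share an RNA are alike. No agent or genetic change was named for either group. The age of the mice and any step that removes leukocytes were not given in the sources used here.

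Values are log2 RMA expression values, so a difference of 1 is a 2-fold change. RMA makes no call of whether a transcript is detected. The 3 Trpn control probe sets read 2.31 to 2.95 and mark the low end of the scale. The sort marker Cd34 read 10.15 ± 0.55 (SD, n = 6) on CD34+ and 3.23 ± 0.30 on CD34- arrays. Several features of the arrays differed between the fractions. For Actb the 3' control probe set exceeded the 5' one by 4.54 ± 0.66 on CD34+ and 2.48 ± 0.49 on CD34- arrays (SD, n = 6, two-sided exact permutation p = 0.00216, the smallest that 924 splits can give). For Gapdh the excess was 4.01 ± 0.36 against 3.41 ± 0.16 (n = 6, exact permutation p = 0.00216). The SD over all probe sets of 1 array was lowest on CD34+ arrays 1, 3 and 5, at 1.92 to 2.07, against 2.19 to 2.32 on the other 9 arrays. The part of the Actb and Gapdh excess in the results was not tested. Without CD34+ arrays 1, 3 and 5, 7 of the 20 probe sets were lower in CD34+ cells, against 9 with all arrays. Of all 45037 probe sets, 7018 passed in either direction without those 3 arrays, against 9704 with all.

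Langerhans cells are of the macrophage lineage and behave like dendritic cells: they take up antigen, carry it to lymph nodes and show it to T cells. They show it on MHC class II, a pair of an alpha and a beta chain that is held by the invariant chain Cd74 until the H2-DM molecule exchanges the chain's remnant for a peptide. Class II genes share a promoter element, the X and Y boxes, on which RFX, CREB and NF-Y proteins assemble and recruit the coactivator Ciita. Cells of this lineage depend on signals through Csf1r, and the receptors of many of them signal through the adaptors Fcer1g and Tyrobp.

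The promoters of H2-Aa and H2-Eb1 are shown because both carry that shared element, and the promoter of Cd207, the Langerhans cell gene without it, is shown for comparison. Each runs from 250 bases before to 50 after the annotated start, 5' to 3' on the gene's strand, from RefSeq on GRCm38.p6, a genome of the C57BL/6J strain. Entries matched 5 of the 10 genes. Capitals mark the X1 core CTNGCAAC, the Y box CTGATTGG, the CRE TGACGTCA and the AP-1 site TGACTCA.
H2-Aa (chr17:34287774-34288073, minus strand): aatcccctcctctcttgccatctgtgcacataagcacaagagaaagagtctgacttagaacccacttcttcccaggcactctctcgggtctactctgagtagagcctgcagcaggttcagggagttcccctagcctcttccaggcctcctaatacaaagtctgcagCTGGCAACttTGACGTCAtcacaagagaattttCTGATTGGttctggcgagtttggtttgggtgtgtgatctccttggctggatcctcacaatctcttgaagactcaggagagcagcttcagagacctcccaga
H2-Eb1 (chr17:34305617-34305916, plus strand): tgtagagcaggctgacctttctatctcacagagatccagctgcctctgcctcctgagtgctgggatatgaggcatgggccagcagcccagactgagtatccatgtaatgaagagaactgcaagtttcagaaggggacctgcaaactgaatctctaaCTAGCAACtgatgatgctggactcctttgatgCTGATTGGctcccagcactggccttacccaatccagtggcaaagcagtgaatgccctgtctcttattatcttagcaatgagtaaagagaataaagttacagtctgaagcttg
Cd207 (chr6:83677808-83678107, minus strand): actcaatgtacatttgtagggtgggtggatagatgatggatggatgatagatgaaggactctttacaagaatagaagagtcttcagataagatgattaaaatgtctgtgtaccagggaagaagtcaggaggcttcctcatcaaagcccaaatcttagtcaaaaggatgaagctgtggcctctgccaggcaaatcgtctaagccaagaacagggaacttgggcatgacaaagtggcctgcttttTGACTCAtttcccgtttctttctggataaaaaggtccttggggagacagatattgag
In H2-Aa the X1 core lies 84 to 77 bases and the Y box 51 to 44 bases upstream of the start, with 25 bases between them. In H2-Eb1 they lie 94 to 87 and 62 to 55 bases upstream, with 24 bases between them. H2-Aa also holds the CRE letters, 74 to 67 bases upstream. Searched on both strands, the Y box letters are in 4.1% of all 32851 promoters of this length, the X1 core letters in 3.42%, and both in 0.18%. The CRE letters are in 1.79% of them and the AP-1 letters in 5.2%. The Cd207 window holds the AP-1 letters, 7 to 1 bases upstream, and neither of the class II boxes. The H2-DMa entries, 2 windows, hold neither class II box, and 1 of them holds the AP-1 letters, 86 to 80 bases upstream. Both windows (chr17:34122582-34122881 and chr17:34125268-34125567) lie inside the annotated locus, 34119693 to 34139101. No other start of H2-DMa was searched, so the gene may carry the boxes elsewhere. The letters overlap in none of these windows. A match is a description of the letters, and they were chosen after the sequences had been read.

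Cd207, Fcer1g and 5 genes of the class II pathway had probe sets that were lower in the CD34+ fraction. Of the 20 probe sets, 9 were lower at an adjusted p under 0.05 (limma, two-sided, Benjamini-Hochberg over all 45037 probe sets), 0 were higher (limma, 0 at an unadjusted p under 0.05), and 11 did not pass. Over all probe sets 21.5% passed, 13.9% lower and 7.64% higher in CD34+ cells. The 9 belong to 7 genes: Cd207, Cd74, H2-Aa, H2-Ab1, H2-Eb1, H2-DMa and Fcer1g. Ciita, Csf1r and Tyrobp had no probe set that passed. For 7 of the 20 probe sets every CD34+ array was below every CD34- array, which held for 6.86% of all probe sets. The median log2 difference of the 20 was -0.45, and that of all probe sets was 0.064. Centring each array on its median moved the latter by -0.102, and of the calls over all probe sets 64.6% were lower with the deposited values, 58.3% after a further quantile normalization and 78.9% after centring. All 9 had a negative difference under each alternative in which they were fitted. That was 24 alternatives for 6 of them and 23 for H2-Aa on 1452431_s_at and H2-Ab1 on 1425477_x_at and 1451721_a_at, which a fit with 1 probe set per gene leaves out. Cd207 and H2-Ab1 on 1450648_s_at passed in 24 of 24, and H2-Aa on 1452431_s_at in 23 of 23. Taken alone, the 3 odd-numbered arrays of each fraction gave 4 lower probe sets and the 3 even-numbered ones 5. Of all 45037 probe sets, 13180 passed in either direction on odd-numbered and 2348 on even-numbered arrays. In RNA of whole fractions, fewer cells of a type and less RNA per cell cannot be told apart.

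**Figure D1:**
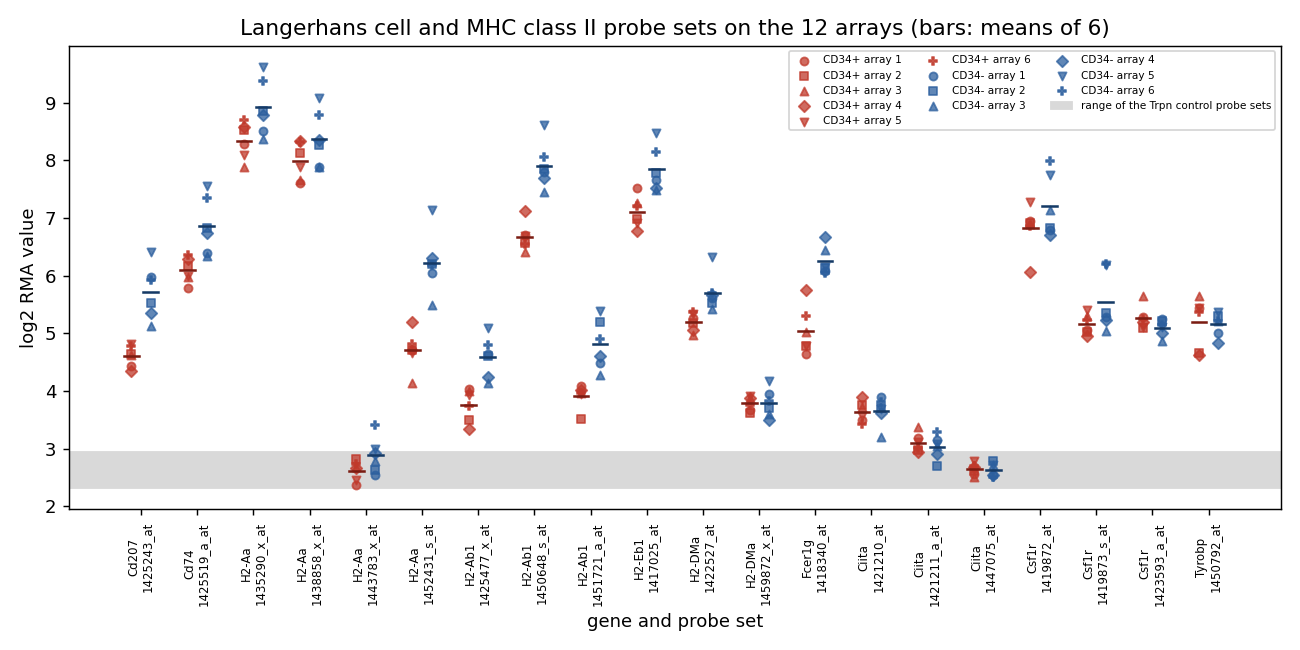
Log2 RMA values (y axis) of the 20 probe sets (x axis) on each of the 6 CD34+ (red) and 6 CD34- arrays (blue). Horizontal bars are means of 6 arrays, and the grey band is the range of the Trpn controls, 2.31 to 2.95. The Cd207 values of CD34+ arrays end at 4.82, below the lowest CD34- array at 5.12.

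Cd207 encodes langerin, the lectin that builds the Birbeck granules of Langerhans cells. It read 4.43, 4.63, 4.62, 4.35, 4.82 and 4.79 on CD34+ arrays 1 to 6. On CD34- arrays 1 to 6 it read 5.97, 5.53, 5.12, 5.36, 6.41 and 5.92. The fractions did not overlap, and CD34- array 5 was the highest. Cd207 was 2.16-fold lower in CD34+ cells (4.61 ± 0.19 against 5.72 ± 0.47, SD, n = 6, log2 difference -1.11, SE 0.19, limma adjusted p = 0.00108). Every Cd207 value lay above the range of the Trpn controls, in both fractions. On CD34+ arrays, however, it read 4.35 to 4.82, close to the medians of those arrays, 4.23 to 4.43. Signal that low can hide part of a difference, and whether Cd207 was detected in CD34+ cells was not tested.

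The class II chains are encoded by H2-Aa (alpha chain) and H2-Ab1 (beta chain) for the A molecule and by H2-Eb1 (beta chain) for the E molecule. All 3 probe sets of H2-Ab1 were lower. The one with the highest mean, 1450648_s_at, read 6.70, 6.56, 6.41, 7.11, 6.69 and 6.56 on CD34+ arrays. On CD34- arrays it read 7.79, 7.85, 7.45, 7.69, 8.61 and 8.05. The fractions did not overlap, and H2-Ab1 was 2.35-fold lower by this probe set (6.67 ± 0.24 against 7.91 ± 0.40, SD, n = 6, log2 difference -1.23, SE 0.18, limma adjusted p = 0.000317). The others, 1425477_x_at (-0.83, adjusted p = 0.00375) and 1451721_a_at (-0.89, adjusted p = 0.0031), did not overlap between fractions either.

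H2-Aa gave different answers by probe set. On 1452431_s_at the CD34+ arrays read 4.72, 4.71, 4.14, 5.20, 4.66 and 4.81. The CD34- arrays read 6.05, 6.21, 5.49, 6.30, 7.13 and 6.18 on it. The fractions did not overlap there, and the log2 difference was -1.52 (4.71 ± 0.34 against 6.23 ± 0.53, SD, n = 6, SE 0.23, limma adjusted p = 0.000483), the largest of the 20. The 2 probe sets with higher signal, 1435290_x_at (8.34 ± 0.31 against 8.92 ± 0.49, log2 difference -0.58, limma adjusted p = 0.0708) and 1438858_x_at (-0.39, adjusted p = 0.203), did not pass and their fractions overlapped. On the remaining one, 1443783_x_at, values of 2.36 to 3.41 lay in or close to the range of the Trpn controls (-0.26, adjusted p = 0.191). The ending _x_at marks probe sets whose probes may also bind other transcripts. H2-Ab1 on 1425477_x_at, which passed, carries it as well. Binding of other transcripts was tested for no probe set, those that passed included, such as 1452431_s_at. Class II genes differ between mouse strains, and the match of the probes to the alleles of these mice was not tested.

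H2-Eb1 read 7.52, 6.98, 7.26, 6.78, 6.91 and 7.20 on CD34+ arrays. It read 7.65, 7.78, 7.49, 7.52, 8.47 and 8.14 on CD34- arrays. CD34+ array 1 lay just above the lowest CD34- array, and the other 5 lay below all CD34- arrays. The log2 difference was -0.73 (7.11 ± 0.27 against 7.84 ± 0.39, SD, n = 6, SE 0.18, limma adjusted p = 0.00998). After a further quantile normalization it was -0.43 (limma adjusted p = 0.191). H2-Eb1 also did not pass on odd-numbered (-0.64, adjusted p = 0.103) or even-numbered arrays alone (-0.82, adjusted p = 0.0566).

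Cd74, the invariant chain, and H2-DMa, the alpha chain of the peptide exchange factor, act on class II molecules before they show a peptide. Cd74 read 5.78, 6.16, 5.97, 6.30, 6.00 and 6.36 on CD34+ arrays. It read 6.39, 6.82, 6.34, 6.74, 7.55 and 7.34 on CD34- arrays. CD34- arrays 5 and 6 stood highest, and only CD34+ array 6 reached the lowest CD34- array. The log2 difference of Cd74 was -0.77 (6.09 ± 0.22 against 6.86 ± 0.49, SD, n = 6, SE 0.20, limma adjusted p = 0.0147). H2-DMa on 1422527_at read 5.26, 5.17, 4.98, 5.07, 5.33 and 5.38 on CD34+ arrays. It read 5.61, 5.52, 5.42, 5.66, 6.32 and 5.70 on CD34- arrays, so the fractions lay apart by 0.038. Its log2 difference was -0.51 (5.20 ± 0.16 against 5.70 ± 0.32, SD, n = 6, SE 0.14, limma adjusted p = 0.0201). Its other probe set, 1459872_x_at, was at -0.009 (adjusted p = 0.961, 95% interval -0.26 to 0.24). Neither Cd74 (adjusted p = 0.0528) nor H2-DMa (adjusted p = 0.0534) passed with means of arrays 1-2, 3-4 and 5-6, 3 against 3, and leaving out CD34+ arrays 1, 3 and 5 ended both calls as well (-0.59 for Cd74 and -0.50 for H2-DMa). Those sets of arrays are assumed, not labelled, and the consensus correlation within them was -0.136.

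Fcer1g, the common gamma chain of Fc receptors and other activating receptors, was lower as well. It read 4.64, 4.77, 5.02, 5.75, 4.78 and 5.30 on CD34+ arrays. It read 6.08, 6.14, 6.45, 6.67, 6.15 and 6.05 on CD34- arrays. The fractions did not overlap, and the highest arrays of both carried the number 4. Fcer1g was 2.32-fold lower in CD34+ cells (5.04 ± 0.42 against 6.26 ± 0.25, SD, n = 6, log2 difference -1.21, SE 0.18, limma adjusted p = 0.000457). On even-numbered arrays alone it did not pass (-1.01, limma adjusted p = 0.0866). Fcer1g is also used by natural killer cells and some T cells.

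Ciita, Csf1r and Tyrobp did not pass on any of their probe sets. Ciita on 1421210_at read 3.49, 3.76, 3.71, 3.89, 3.56 and 3.43 on CD34+ arrays. It read 3.89, 3.71, 3.21, 3.62, 3.69 and 3.81 on CD34- arrays. The fractions overlapped, with a log2 difference of -0.014 (limma adjusted p = 0.940, 95% interval -0.28 to 0.25). The other Ciita probe sets were at 0.069 (1421211_a_at, adjusted p = 0.667) and 0.012 (1447075_at, adjusted p = 0.925), the last of them within the range of the Trpn controls on all arrays. Signs that close to 0 changed with the scaling. No order was read from these low values.

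Csf1r is the receptor for the growth factors Csf1 and Il34. On 1419872_at it read 6.95, 6.91, 6.90, 6.07, 7.29 and 6.87 on CD34+ arrays. On CD34- arrays it read 6.79, 6.83, 7.13, 6.71, 7.74 and 7.99. CD34- arrays 5 and 6 stood above all other arrays, and the remaining 4 lay among the CD34+ arrays. The log2 difference was -0.37 (limma adjusted p = 0.291, 95% interval -0.90 to 0.16). 1419873_s_at had the same 2 arrays on top, at 6.19 and 6.20, and a difference of -0.39 (adjusted p = 0.181). The third, 1423593_a_at, was at 0.17 (adjusted p = 0.261) and showed no such arrays, with CD34- values of 4.87 to 5.24.

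Tyrobp, also called DAP12, is the partner of many receptors of myeloid and natural killer cells. It read 5.44, 4.65, 5.64, 4.62, 5.43 and 5.37 on CD34+ arrays. It read 5.01, 5.30, 5.21, 4.83, 5.36 and 5.21 on CD34- arrays. The fractions overlapped (0.040, limma adjusted p = 0.886, 95% interval -0.35 to 0.43). CD34+ arrays 2 and 4 read lowest, and without CD34+ arrays 1, 3 and 5 the difference was -0.27 (adjusted p = 0.373).

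**Figure D2:**
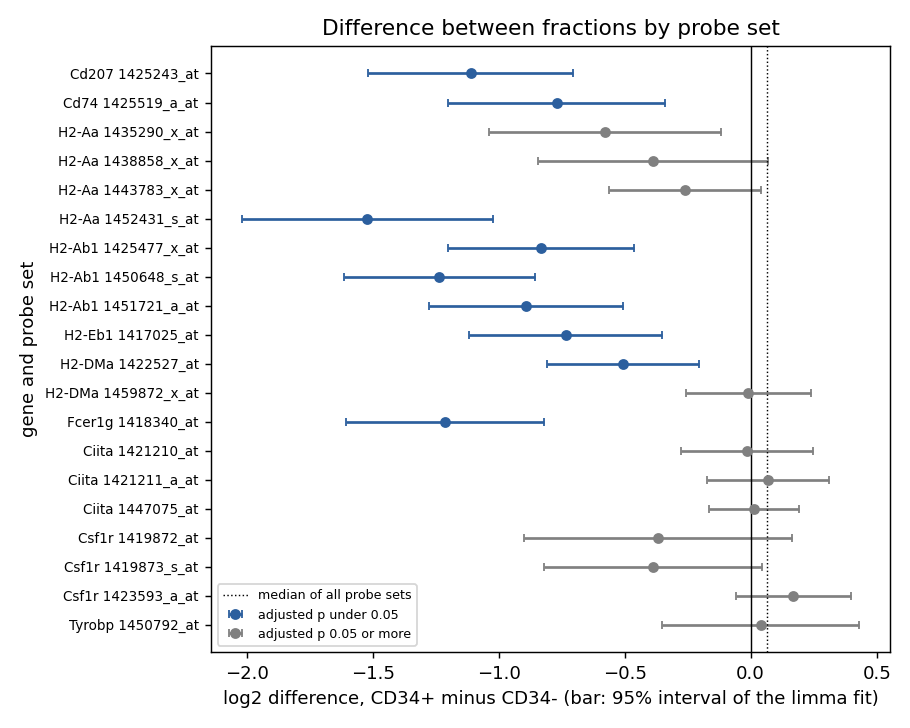
Log2 difference, CD34+ minus CD34- (x axis), of each probe set (y axis), with the 95% interval of the limma fit to 12 arrays. Blue marks the 9 with adjusted p under 0.05, grey the other 11, and the dotted line the median of all probe sets, 0.064. The largest difference is that of H2-Aa on 1452431_s_at, -1.52, and the probe sets of Ciita and Tyrobp lie about 0.

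Within the CD34- fraction the class II genes shared the arrays on which they were high. Array 5 was the highest CD34- array for 12 of the 20 probe sets and for 8 of the 9 that were lower in CD34+ cells. It was the highest for 13.5% of all probe sets and for 19.5% of all those lower in CD34+ cells. Set against the mean of CD34- arrays 1 to 4, the mean of arrays 5 and 6 was higher by 0.87 for Cd74, 0.70 for H2-Eb1, 0.64 for H2-Ab1, 0.67 for Cd207 and 1.00 for Csf1r on 1419872_at. For Fcer1g it was lower (-0.23). These arrays were singled out after their values were seen, and the differences among CD34- arrays are a description with no test. Without CD34- arrays 5 and 6, where fewer of all probe sets passed than with all arrays, 7 of the 20 were lower. Cd74 (-0.48, limma adjusted p = 0.0545) and H2-DMa (-0.35, adjusted p = 0.0565) were the ones that no longer passed.

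For the T cell gene Cd3g the order of the CD34- arrays was another. Cd3g, part of the CD3 complex that signals for the T cell receptor, read 9.18, 9.29, 9.43, 9.46, 8.54 and 8.49 on CD34- arrays 1 to 6, with arrays 5 and 6 lowest. On CD34+ arrays it read 5.27, 5.88, 5.17, 6.89, 5.64 and 5.83, highest on array 4, as were Fcer1g and the leukocyte antigen Ptprc. Arrays 5 and 6 were not the lowest CD34- arrays for most other T cell markers. For Cd3d, array 2 (6.47) read below array 5 (6.59). The mean of arrays 5 and 6 was below that of arrays 1 to 4 for each marker measured, from -0.82 for Cd3g to -0.054 for Zap70.

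**Figure D3:**
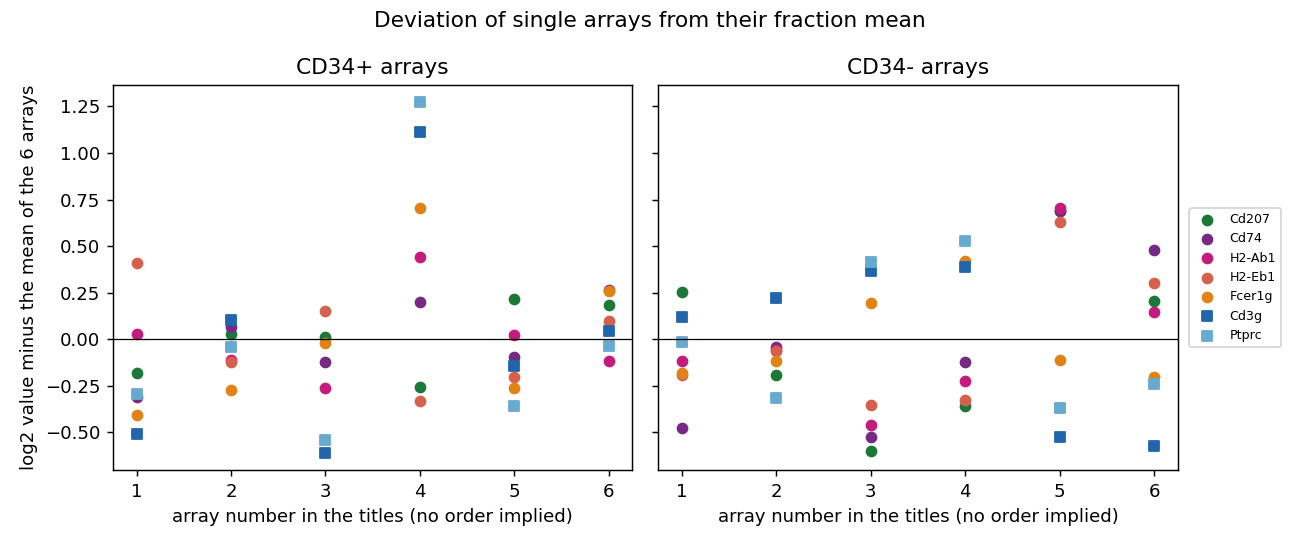
Log2 value minus the mean of the 6 arrays of the same fraction (y axis) against array number (x axis), for CD34+ (left) and CD34- arrays (right). Circles are 5 Langerhans cell and class II genes each by its brightest probe set, squares are Cd3g of T cells and Ptprc, which leukocytes carry, Langerhans cells included. On CD34- arrays 5 and 6 Cd207, Cd74, H2-Ab1 and H2-Eb1 lie above 0 while Cd3g, Ptprc and Fcer1g lie below it.

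Whether genes differed by the same amount was tested on the per-array log2 ratio of Cd207 to 4 other genes, each by its brightest probe set. Cd3g was at -3.29 (SE 0.27, limma adjusted p = 6.52e-06) between fractions, so the ratio of Cd207 to Cd3g was higher in CD34+ cells by 2.18 (two-sided exact permutation over 6 and 6 arrays, p = 0.00433, 0.0173 adjusted over the 4 tests). It was above all CD34- arrays on 5 of 6 CD34+ arrays. Cd3g had the most negative difference of all 18193 genes read by 1 probe set each. A higher ratio of Cd207 to it therefore followed from the choice of Cd3g, and the p-value says nothing about T cell genes as a group. Cd3e, also of the CD3 complex, was at -0.60 (limma adjusted p = 0.0127), a smaller fall than that of Cd207. Cd207 read close to the array medians on CD34+ arrays, where a further fall can be hidden, and its part in the ratio was not tested. Without CD34+ arrays 1, 3 and 5 the difference was 1.74 (3 against 6 arrays, exact permutation, adjusted p = 0.0714). The ratio of Cd207 to H2-Ab1 differed by 0.12 (exact permutation p = 0.535, adjusted 0.535), that to Cd74 by -0.34 (exact permutation p = 0.0714, adjusted 0.143), and that to H2-K1, a class I gene, by 0.43 (exact permutation p = 0.182, adjusted 0.242). None of these 3 passed. H2-K1 itself was at -1.54 (limma adjusted p = 0.000264).

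The other genes of these pathways were read from lists, by the probe set of highest mean for each gene. Over the 18193 genes so represented, 17.5% were lower and 7.73% higher in CD34+ cells, with a median of 0.040. Of 14 genes of class II molecules and peptide loading measured, 5 were lower and 1 was higher, with a median of -0.48. The 5 are H2-Ea, H2-Ab1, Cd74, H2-Eb1 and H2-DMa, of which 4 are members of the set above. H2-Ea, the alpha chain of the E molecule, read 7.23 ± 0.46 on CD34+ and 8.99 ± 0.39 on CD34- arrays (SD, n = 6, log2 difference -1.76, SE 0.22, limma adjusted p = 0.000131), without overlap. Mice of the C57BL strains do not express this gene, while DBA mice do. Another H2-Ea probe set was at -0.47 (adjusted p = 0.0386) and the last, near the Trpn range, at 0.029 (adjusted p = 0.836). The lysosomal protease Ctsl, named for its mean level, was at -0.45 (adjusted p = 0.302). Looked up after their values were seen, Ctss, which trims the invariant chain, was at -0.39 (adjusted p = 0.358), and H2-Oa, a chain of the modulator of H2-DM, was the higher one (0.26, adjusted p = 0.046).

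Of 14 genes that control class II transcription, 6 were lower and 0 higher by limma (1 at an unadjusted p under 0.05), with a median of -0.29. Ifngr1, the ligand-binding chain of the interferon-gamma receptor, fell by 2.00 (limma adjusted p = 8.89e-05), and its kinase Jak1 fell by 1.32 (adjusted p = 0.00311). The NF-Y subunit Nfyb fell by 0.73 (adjusted p = 0.0135), and the others lower were Nfya, Irf1 and the RFX subunit Rfx5. Nfyc (0.024, adjusted p = 0.910) and Creb1 (-0.32, adjusted p = 0.199), named for their mean levels, did not pass. The counts moved with the scaling: after a further quantile normalization 4 were lower and 3 higher, and without CD34+ arrays 1, 3 and 5 the counts were 3 and 2, where Jak1 was at -0.77 and Nfyb did not pass (-0.40, adjusted p = 0.153). These genes are active in keratinocytes too.

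Of 12 genes of the Csf1r axis, 6 were lower and 1 higher, with a median of -0.42. Il34, the Csf1r ligand that keratinocytes make and on which Langerhans cells depend, read 5.79 ± 0.52 on CD34+ and 7.57 ± 0.18 on CD34- arrays (SD, n = 6, log2 difference -1.78, limma adjusted p = 6.3e-05), without overlap. Tgfbr2, a chain of the TGF-beta receptor, fell by 1.16 (adjusted p = 0.000605), and the transcription factor Runx1 rose by 1.53 (adjusted p = 0.00171). Cebpb fell by 0.67 (adjusted p = 0.00361), and was at -0.37 after a further quantile normalization (adjusted p = 0.0982).

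Genes of Langerhans cell identity moved both ways, 4 lower and 2 higher of 15, with a median of 0.089 that was -0.013 after centring. Besides Cd207, the transcription factor Runx3 (-1.36, limma adjusted p = 1.17e-05) and the xenobiotic receptor Ahr (-1.05, adjusted p = 0.00136) fell, and Epcam is given with the markers. Id2, a factor that hair follicle keratinocytes also express, rose by 2.17 (adjusted p = 5.36e-05), and the other rise was that of Mpeg1. Cd24a, named for its mean level, was at 0.55 (adjusted p = 0.123). Maturation and migration genes had 2 lower and 0 higher of 11 by limma (2 higher at an unadjusted p under 0.05), with a median of 0.10, namely Cd83 (-1.44, adjusted p = 0.00034) and the chemokine receptor Ccr6 (-0.50, adjusted p = 0.0151), a call lost when CD34- arrays 5 and 6 were left out (adjusted p = 0.0571). Fscn1 (0.036, adjusted p = 0.832) and Cdh1 (-0.47, adjusted p = 0.143) were named for their mean levels. Of 18 adaptors with an ITAM (the tyrosine motif of activating receptors) and their partners, 3 were lower and 3 higher, with a median of 0.12. The inhibitory Fc receptor Fcgr2b (0.50, adjusted p = 0.00881), the lectin Clec7a (0.72, adjusted p = 0.0209) and the phospholipase Plcg2 (0.60, adjusted p = 0.00167) rose. Besides Fcer1g, the adaptor Hcst (-0.49, adjusted p = 0.00221) and the phosphatase Inpp5d (-0.45, adjusted p = 0.018) were lower, both looked up after their values were seen. Without CD34+ arrays 1, 3 and 5, Fcgr2b was at 0.43 (adjusted p = 0.0643) and Clec7a at 0.29 (adjusted p = 0.0814), and neither passed. Clec7a was at 1.12 on odd-numbered arrays, and at 0.72 without CD34- arrays 5 and 6 (adjusted p = 0.0783).

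Markers of the cell types that could carry these transcripts were set beside the members. Of 10 Langerhans cell markers, 5 of them members, 5 were lower and 1 higher, with a median of -0.66. The 5 members account for 4 of the lower ones (median -0.77), and the 5 others had 1 lower, 1 higher and a median of 0.065. Epcam, which keratinocytes express as well, was at -0.95 (limma adjusted p = 0.0127, and 0.0556 after a further quantile normalization). The mean level of the list was 5.67 to 6.01 on CD34+ and 6.08 to 6.62 on CD34- arrays. Mpeg1 was the higher one (0.71, adjusted p = 0.0151), and Itgax (0.14), Adgre1 (0.065) and Ly75 (-0.11) did not pass. The choice of these 4 followed a look at their values.

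Of 10 T cell markers 9 were lower and 0 higher by limma (1 at an unadjusted p under 0.05), with a median of -1.85 and mean levels of 5.49 to 6.42 on CD34+ and 7.05 to 8.02 on CD34- arrays. Ptprc (-2.80), Trat1 (-2.30) and Thy1 (-1.90) were among them, besides Cd3g. Of 6 natural killer cell markers 3 were lower and 0 higher by limma (0 at an unadjusted p under 0.05), with a median of -0.92: Klrd1 (-2.14), Nkg7 (-1.99) and Prf1 (-1.85), which T cells express too. The part of T and natural killer cells in the Fcer1g difference was not tested.

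Of 13 dermal macrophage and monocyte markers 1 was lower and 3 were higher, with a median of 0.27. Cx3cr1 fell by 1.02 (adjusted p = 0.00519). C1qa was at 0.47 (limma adjusted p = 0.00999, and 0.0642 without CD34+ arrays 1, 3 and 5). Cd14 was at 0.40 (adjusted p = 0.0471), a call lost under both scalings (adjusted p = 0.232 and 0.19) and on leaving out any 1 of 9 arrays, CD34+ 1, 2, 5 and 6 and CD34- 1 to 5 (0.0621 to 0.096). The third was C1qb (0.33, adjusted p = 0.0379), looked up after its value was seen. Ccr2, named for its mean level, was at 0.36 (adjusted p = 0.159). Mean levels of the list were 3.70 to 4.03 on CD34+ and 3.66 to 3.76 on CD34- arrays. Of 8 dermal dendritic cell markers 1 was lower and 0 higher by limma (1 at an unadjusted p under 0.05), the integrin Itgae (-2.05, adjusted p = 5.52e-05), which epidermal T cells carry as well, while Flt3, named for its mean level, was at 0.42 (adjusted p = 0.124). That list had a median of 0.13. Of 6 markers of B cells, which also carry class II, 0 passed by limma and 0 had an unadjusted p under 0.05, with a median of 0.17 and mean levels of 3.45 to 3.90 on CD34+ and 3.41 to 3.60 on CD34- arrays. Cd22 was at 0.17 (adjusted p = 0.329) and Pax5 at 0.29 (adjusted p = 0.198).

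Of 8 mast cell markers 0 passed by limma (4 had an unadjusted p under 0.05), with a median of 0.30, Hdc at 0.54 (adjusted p = 0.103, and 0.27 with adjusted p = 0.0268 on its other probe set) and Gata2 at 0.34 (adjusted p = 0.116). Of 6 neutrophil markers 1 was higher, Cxcr2 (0.52, adjusted p = 0.0302, 0.269 without CD34+ arrays 1, 3 and 5, 0.0719 without CD34- arrays 5 and 6, and 0.0501 to 0.0676 on leaving out 1 array, be it CD34+ 1, 5 or 6 or CD34- 1, 2, 4 or 5), with a median of 0.20, and Elane (0.30, adjusted p = 0.101) and Mpo (0.56, adjusted p = 0.0586) did not pass. Of 7 keratinocyte markers 5 were lower, with a median of -0.82: Sfn (-1.61), Krt14 (-1.37), Krt5 (-1.04), Itga6 (-0.82) and Trp63 (-0.42). Without CD34+ arrays 1, 3 and 5, Sfn was at -1.07 and Krt14 at -0.90, and on even-numbered arrays 0 of the 7 keratinocyte markers passed by limma, with a median of -0.58. Krt15 (-0.29, adjusted p = 0.109) and Perp (-0.056, adjusted p = 0.747) did not pass. Keratinocyte markers read far above the Trpn range in both fractions, with mean levels of 10.8 to 11.5 and 11.8 to 12.1. Other probe sets of Runx3, Ahr, Tgfbr2, Epcam, Cx3cr1 and Prf1 did not pass and were at -0.16 to 0.37.

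**Figure D4:**
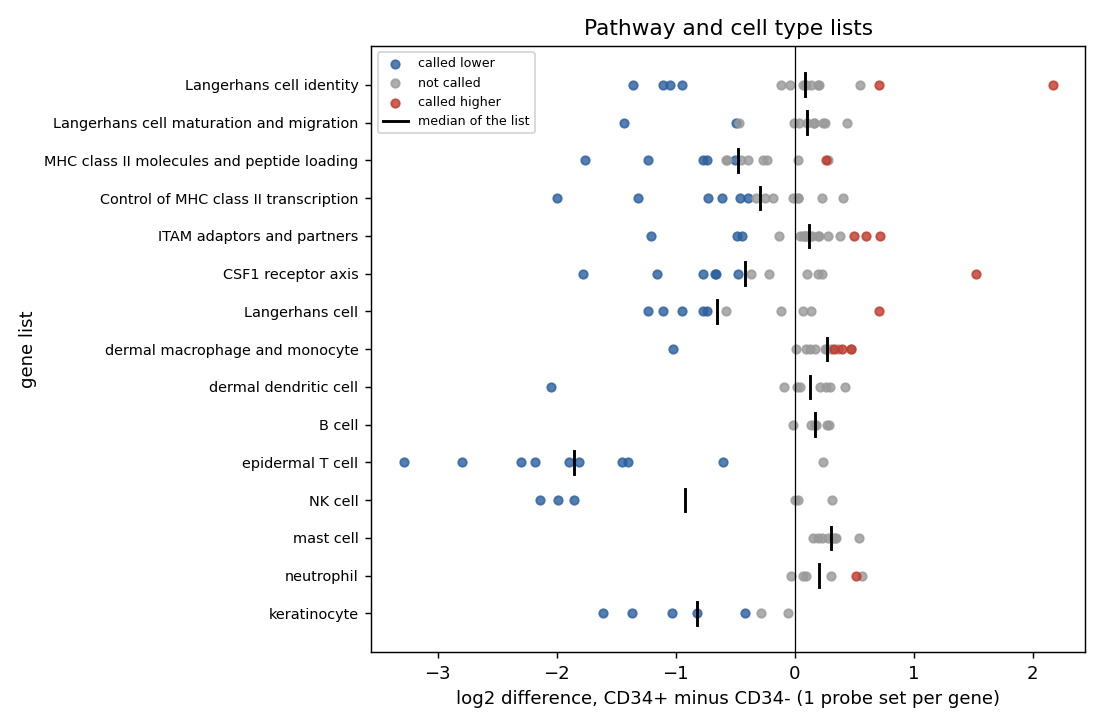
Log2 difference, CD34+ minus CD34- (x axis), of each gene of the 15 lists (y axis) by its brightest probe set, on 12 arrays. Blue and red mark genes lower and higher at adjusted p under 0.05, grey the others, and the black bar the median. The T cell list has its median at -1.85 and the Langerhans cell markers at -0.66, of which the 5 that are not members have theirs at 0.065.

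The genes whose pattern over the 12 arrays was most like that of Cd207, members left out, were Rsl1 (Pearson r 0.96), Reep4 (0.93), Tsc22d3 (0.92), Slc39a2 (0.92) and Pdk4 (0.92). Those most like H2-Ab1 were Mettl16 (0.96), Reep4 (0.96), Trim47 (0.96), Zfp668 (0.95) and Ube2o (0.95). All 9 were lower in CD34+ cells, from -0.37 for Slc39a2 to -2.29 for Tsc22d3. That direction follows from their choice by likeness to Cd207 and H2-Ab1, which were lower themselves. These are descriptions over 12 arrays, which share a difference between 2 fractions and in part the RNA, and 18193 genes were searched.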

How the data were processed

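The authors deposited 1 table of log2 expression values, which the submitters' processing notes credit to RMA; the version of RMA was not given in the sources used here. Before any test, 64 control probe sets were set aside. GEO's platform annotation, updated through Entrez identifiers, tied 34945 of the 45037 remaining probe sets to 1 gene, 932 to several and 9160 to none. Limma 3.58.1 in R 4.3.3 (lmFit, eBayes, no block) compared the fractions over all 45037 without a filter on low values, and a call is a Benjamini-Hochberg adjusted p under 0.05. The script was tested on simulated data. The number of arrays limits the precision.

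Whether the title numbers pair the fractions is not in the labels. Deviations of arrays numbered 1 to 6 in both fractions correlated at 0.43, -0.24, 0.21, 0.49, -0.18 and 0.40. Arrays with unlike numbers were not compared, so these values cannot settle it. The members, lists, ratio tests and alternatives were chosen with earlier results of these data known. Named were every member probe set, up to 3 of the largest calls and the 2 highest means of each list, Cd34, and the 5 genes most like Cd207 and H2-Ab1. Some genes of the lists are not reported here.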

Additional observations from a re-analysis of the deposited data

Results flagged for a closer look

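Among 40 groups of 6 arrays (20 probe sets in each fraction), 4 held 1 array far from the other 5 by the share of the whole range that lay between it and the nearest array, against Dixon's critical value. Chance gives about 5% of groups. H2-Ab1 on 1451721_a_at read 3.52 on CD34+ array 2, the lowest, with the next at 3.95. H2-DMa on 1422527_at read 6.32 on CD34- array 5, the highest, with the next at 5.70. Csf1r on 1419872_at read 6.07 on CD34+ array 4, the lowest, with the next at 6.87. Csf1r on 1423593_a_at read 5.65 on CD34+ array 3, the highest, with the next at 5.29.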

How the results depend on the processing

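The 9 lower probe sets kept a negative difference under each alternative in which they were fitted (24, or 23 for H2-Aa on 1452431_s_at and H2-Ab1 on 1425477_x_at and 1451721_a_at), of which leaving out CD34- arrays 5 and 6 was chosen after the data were seen. With the title number as a replicate block 10 of 20 were lower, H2-Aa on 1435290_x_at (-0.58, limma adjusted p = 0.0408) being the added one, and leaving out single arrays gave 9 to 10. Odd-numbered arrays gave 4 lower: Cd207, H2-Aa on 1452431_s_at, H2-Ab1 on 1450648_s_at and Fcer1g. Even-numbered arrays gave 5 lower: Cd207, H2-Aa on 1452431_s_at and the 3 of H2-Ab1. Over all probe sets 9704 passed, 2348 on even-numbered and 13180 on odd-numbered arrays, and 5701 without CD34- arrays 5 and 6. The count was 7018 without CD34+ arrays 1, 3 and 5, 10209 with the title number as a block, and 7439 to 12318 without single arrays. With 1 probe set per gene it was 4750 of 18193, where fewer were tested. The ratio of Cd207 to Cd3g, 2.18, missed the threshold on means of arrays 1-2, 3-4 and 5-6 (2.18), on odd-numbered (2.48) or even-numbered arrays (1.87), where 3 against 3 cannot pass, nor without CD34+ arrays 1, 3 and 5 (1.74); without single arrays it was 1.98 to 2.45. Values near 0 that never passed changed sign. Ciita on 1421211_a_at was at -0.045 after a further quantile normalization, -0.032 after centring and -0.060 without CD34+ arrays 1, 3 and 5. Ciita on 1447075_at was at -0.058 and -0.090 under those scalings, -0.031 on odd-numbered arrays and -0.00070 without CD34- arrays 5 and 6. Ciita on 1421210_at was at 0.039 without CD34+ arrays 1, 3 and 5 and 0.034 without CD34- arrays 5 and 6. Tyrobp was at -0.062 after centring, -0.27 without the 3 CD34+ arrays and -0.23 on even-numbered arrays, and H2-DMa on 1459872_x_at at 0.075 on even-numbered arrays and 0.096 without CD34- arrays 5 and 6. Without single arrays these ran from -0.10 to 0.033 (Ciita, 1421210_at), -0.017 to 0.043 (Ciita, 1447075_at), -0.049 to 0.15 (Tyrobp) and -0.069 to 0.068 (H2-DMa). The cause was not tested. Probe sets near the Trpn controls, such as Ciita on 1421211_a_at and 1447075_at, can hide a difference. Ciita on 1421210_at read 3.21 to 3.89, above those controls and below the array medians of 4.19 to 4.43, and low signal of that kind can hide one too.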
